A study of Homo sapiens with 6 samples.

Results

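The HOX genes encode homeodomain transcription factors and lie in 4 clusters, HOXA on chromosome 7, HOXB on chromosome 17, HOXC on chromosome 12 and HOXD on chromosome 2. Members were taken by symbol, as every protein-coding gene named HOXA, HOXB, HOXC or HOXD and a number. This gave 37 of the 17160 genes in the deposited tables: 11 HOXA, 9 HOXB, 9 HOXC and 8 HOXD genes. Values for 32 of them exist in all 6 libraries. The other 5, HOXD3, HOXD4, HOXD10, HOXD11 and HOXD13, have values in 4 libraries and none in PC-9ER or HCC827ER. HOXB1, HOXD12 and the noncoding RNAs of the clusters were not analysed here.

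The libraries come from human lung adenocarcinoma cell lines, with 1 library of ribosome-depleted, stranded total RNA per line. The derived lines PC-9GR and PC-9ER are set against their parent PC-9, and HCC827GR and HCC827ER against their parent HCC827. The series describes the derived lines as having acquired resistance to EGFR tyrosine kinase inhibitors and asks which pathways are behind it. All 6 lines were kept in RPMI-1640 with serum, the labels do not spell out GR or ER, and the line labelled HCC82GR once is read as HCC827GR. The labels name no drug, dose or clone, and no line has a second culture.

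As background, the order of HOX genes along a cluster matches the order of the body regions in which they are used, from the hindbrain (low paralog numbers) through the trunk to the hindgut, genital tract and limb ends (high numbers). Adult epithelial cells and cell lines keep a HOX pattern set by the body region they came from. Polycomb repressors keep unused genes off, trithorax-type methyltransferases keep used genes on, and retinoic acid switches on the low-numbered genes in the embryo. HOX proteins bind DNA with PBX and MEIS cofactors.

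Total counts ran from 14529332 in HCC827 to 17859787 in PC-9GR. The unit of level is CPM, the count per 1000000 after TMM scaling, and a count of 0 allows up to 3 counts, which is 0.167 to 0.211 CPM depending on the library. A gene is called on at 1 CPM or more, silent at 3 counts or fewer, and low in between. Across the 16000 genes listed for all libraries, PC-9GR stood apart from its parent: its Spearman correlation was 0.83 with PC-9 and 0.86 with HCC827, and the parents correlated at 0.87 with each other. The library labelled PC-9GR was thus no more like PC-9 than like HCC827, and whether it descends from PC-9 was not tested. Each difference between PC-9GR and PC-9 given here, HOX genes on in 1 and silent in the other included, rests on that label. Each of the other 3 derived lines correlated with its own parent at 0.92 to 0.97. Both ER lines, and no other library, come from the second deposited table, so the table and the ER label cannot be told apart. Of 14 lung adenocarcinoma and airway epithelium markers in the first table, 10 or 11 were on in every library, and their summed level was 8455 CPM in PC-9GR and 6350 CPM in PC-9ER, against 9804 CPM in PC-9, and 5292 CPM in HCC827GR and 9424 CPM in HCC827ER, against 16574 CPM in HCC827. NKX2-1, the lung lineage factor, was at 0 counts in PC-9GR and at 20 in PC-9ER, against 13 in PC-9. It was at 41 counts in HCC827GR and at 0 in HCC827ER, against 221 in HCC827.

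A smaller share of HOX genes than of all genes was on in every library, and PC-9GR had more of them on than its parent. Of the 32 HOX genes listed everywhere, 22 were on in PC-9GR and 14 in PC-9ER, against 15 in PC-9. In the other family 18 were on in HCC827GR and 21 in HCC827ER, against 22 in HCC827. That is 43.8% (PC-9ER) to 68.8% (PC-9GR and HCC827) of the HOX genes, beside 74.8% to 76.1% of all genes. The low-numbered genes of groups 1 to 3 were on at nearly the same number everywhere, 4 or 5 of 6. Groups 4 to 8 had 10 of 14 on in PC-9GR and 5 in PC-9ER, against 5 in PC-9, and 6 in HCC827GR and 9 in HCC827ER, against 7 in HCC827. Groups 9 to 13 had 7 of 12 on in PC-9GR and 5 in PC-9ER, against 6 in PC-9, and 7 in HCC827GR and 7 in HCC827ER, against 10 in HCC827. Scaled to library totals in place of TMM, 18 of the 32 genes were on in HCC827ER. HOXA6, HOXA7 and HOXA13 were then at 0.925 CPM each in HCC827ER, and the other libraries kept their numbers.

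**Figure D1:**
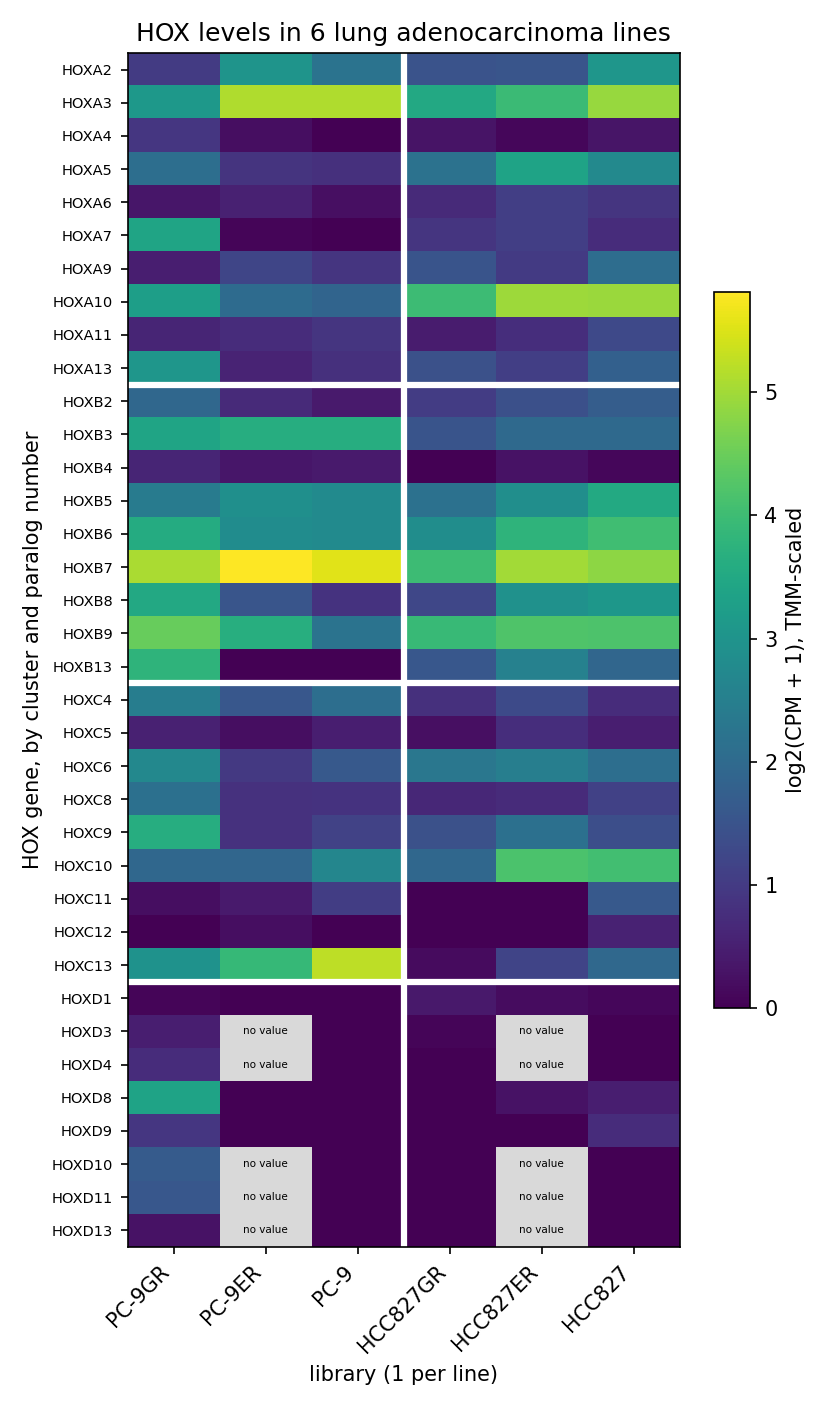
Levels of HOX genes in the 6 libraries as log2(CPM + 1), with genes ordered by cluster and paralog number and 1 column per line, derived lines left of their parent; grey cells have no value. The HOXD rows are dark except in PC-9GR, where HOXD8 reaches 9.34 CPM, and HOXB7 is bright in every column.

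HOXB7, a central gene often highly expressed in carcinomas, was the HOX gene with the highest level per kilobase of exon in all 6 libraries. It was at 32.8 CPM in PC-9GR and 55.3 CPM in PC-9ER, against 46.0 CPM in PC-9, and at 14.8 CPM in HCC827GR and 31.3 CPM in HCC827ER, against 27.4 CPM in HCC827. On the per-kilobase scale it made up 26.2% of the summed HOX level in PC-9GR and 49.2% in PC-9ER, against 42.1% in PC-9, and 25% in HCC827GR and 26.5% in HCC827ER, against 20.5% in HCC827. The HOXB cluster as a whole held 47.9% (HCC827) to 66.4% (PC-9ER) of that sum. The next genes per kilobase were HOXC13 and HOXA3 in PC-9, and HOXA3 and HOXC13 in PC-9ER. They were HOXA10 and HOXC10 in HCC827 and HCC827ER, HOXB9 and HOXA10 in HCC827GR, and HOXB9 and HOXC9 in PC-9GR. HOXB9 thus came second in both PC-9GR and HCC827GR, and in neither parent.

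Among the low-numbered genes, which pattern the hindbrain and the pharyngeal arches, HOXA3, needed for thymus and parathyroid in mice, was at 7.59 CPM in PC-9GR and 33.6 CPM in PC-9ER, against 33.9 CPM in PC-9. Its level was 10.4 CPM in HCC827GR and 14.7 CPM in HCC827ER, against 29.4 CPM in HCC827. HOXA3 was thus lower than in the parent in 3 derived lines and at its parent's level in PC-9ER. HOXA2, which patterns the second pharyngeal arch, was at 1.01 CPM in PC-9GR and 7.03 CPM in PC-9ER, against 3.66 CPM in PC-9, and at 1.79 CPM in HCC827GR and 1.90 CPM in HCC827ER, against 7.35 CPM in HCC827. It was lower than the parent in the same 3 lines and higher in PC-9ER. HOXB3 was within 2-fold of its parent's level in every line, at 9.56 CPM in PC-9GR and 11.4 CPM in PC-9ER, against 11.4 CPM in PC-9, and at 1.85 CPM in HCC827GR and 2.96 CPM in HCC827ER, against 2.95 CPM in HCC827. HOXB2, with at most 2.87 CPM, was below 1 CPM in PC-9ER and PC-9 alone.

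The central genes of groups 4 to 8 pattern the neck and thorax. HOXA5, needed for lung maturation in mice, was at 3.26 CPM in PC-9GR and 0.836 CPM in PC-9ER, against 0.744 CPM in PC-9, and at 3.57 CPM in HCC827GR and 9.37 CPM in HCC827ER, against 5.65 CPM in HCC827. HOXB5 was at 4.33 CPM in PC-9GR and 6.47 CPM in PC-9ER, against 5.89 CPM in PC-9, and at 3.51 CPM in HCC827GR and 6.27 CPM in HCC827ER, against 10.6 CPM in HCC827. HOXA5 varied more between libraries than HOXB5, the gene of the same paralog number in cluster B, and it was below 1 CPM in PC-9ER and PC-9. HOXB6 was at 10.9 CPM in PC-9GR and 6.08 CPM in PC-9ER, against 5.89 CPM in PC-9, and at 6.16 CPM in HCC827GR and 12.7 CPM in HCC827ER, against 15.3 CPM in HCC827. HOXB8, which can hold blood progenitors in an undifferentiated state, was at 10.5 CPM in PC-9GR and 1.90 CPM in PC-9ER, against 0.801 CPM in PC-9, and at 1.36 CPM in HCC827GR and 6.62 CPM in HCC827ER, against 7.48 CPM in HCC827. HOXB8 was 13.1-fold higher in PC-9GR than in PC-9 (95% interval 7.59 to 24.4, exact, counting error only), and in HCC827GR the level was 0.181 times that of HCC827 (0.109 to 0.288). HOXC6 was at 5.58 CPM in PC-9GR and 0.948 CPM in PC-9ER, against 2.06 CPM in PC-9, and at 3.94 CPM in HCC827GR and 4.65 CPM in HCC827ER, against 3.28 CPM in HCC827. Gene models overlap for HOXC4 with HOXC5 and HOXC6, HOXC6 with HOXC8 and HOXC9, HOXA3 with HOXA4 to HOXA6, HOXA9 with HOXA10, HOXB3 with HOXB4 to HOXB6, and HOXB7 with HOXB8 and HOXB9, so these values are uncertain, and the way their reads were shared is not stated. Antisense transcripts run through the clusters, and whether counting used strand is not stated either.

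Of the high-numbered genes in clusters A to C, HOXB9, linked to spread of lung adenocarcinoma, was at 21.2 CPM in PC-9GR and 11.5 CPM in PC-9ER, against 3.61 CPM in PC-9. Its HCC827 family levels were alike, at 14.1 CPM in HCC827GR and 17.7 CPM in HCC827ER, against 17.3 CPM in HCC827. HOXB9 was the 1 high-numbered gene at least 2-fold above PC-9 in both of its derived lines, 5.88-fold in PC-9GR (95% interval 4.49 to 7.81) and 3.20-fold in PC-9ER (2.40 to 4.32), with a fitted log2 fold change of 2.18 ± 0.92 (± standard error; edgeR, unadjusted p = 0.0566, adjusted p = 1). HOXC9, a thoracic gene, was at 11.3 CPM in PC-9GR and 0.781 CPM in PC-9ER, against 1.20 CPM in PC-9, and at 1.73 CPM in HCC827GR and 3.45 CPM in HCC827ER, against 1.64 CPM in HCC827. HOXA10, a uterine gene in mice, was at 8.61 CPM in PC-9GR and 3.12 CPM in PC-9ER, against 2.69 CPM in PC-9, and at 14.8 CPM in HCC827GR and 30.4 CPM in HCC827ER, against 29.7 CPM in HCC827. HOXA10 was thus higher in all 3 HCC827 libraries than in the 3 PC-9 libraries. HOXA13, which patterns the hindgut, genital tract and digits, was at 7.31 CPM in PC-9GR and 0.502 CPM in PC-9ER, against 0.744 CPM in PC-9, and at 1.73 CPM in HCC827GR and 1.13 CPM in HCC827ER, against 2.43 CPM in HCC827. HOXC10 was at 2.87 CPM in PC-9GR and 2.79 CPM in PC-9ER, against 5.32 CPM in PC-9, and at 2.83 CPM in HCC827GR and 16.9 CPM in HCC827ER, against 15.7 CPM in HCC827. HOXC10 was thus near its parent's level in HCC827ER and below it in the other 3 derived lines.

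Against its parent, PC-9GR had 15 HOX genes at least 2-fold higher and 4 lower by as much, of the 25 with at least 1 CPM in 1 of both libraries. The same limits put 22.6% of all genes higher and 19.7% lower, and the median log2 ratio, with a prior count of 2, was 1.63 over these HOX genes and 0.05 over all genes. A gene under 1 CPM in PC-9 entered only by being higher in PC-9GR. This was so for HOXA5, HOXA7, HOXA13, HOXB2, HOXB8, HOXB13, HOXC8, HOXD8, HOXD10 and HOXD11. Of HOX genes listed everywhere 46.9% were on in PC-9, beside 74.8% of all genes, so these shares and medians are not matched. The 4 lower genes were HOXA2, HOXA3, HOXC11 and HOXC13. Of the 13 HOX genes silent in PC-9, 5 were on in PC-9GR, beside 19.9% of all genes silent in PC-9. These 5 were HOXA7, HOXB13, HOXD8, HOXD10 and HOXD11. The first deposited table lists no gene at 0 in all its libraries. HOXD10 and HOXD11 had counts there only in PC-9GR, so that they had counts in PC-9GR was fixed by the listing. HOXD4 and HOXD13, also among the 13, were listed in the same way, and the 19.9% can hold such genes too. HOXA7, HOXB13 and HOXD8 had counts in other libraries as well. In the opposite direction 1 of the 15 HOX genes on in PC-9, HOXC11, was silent in PC-9GR, beside 3.99% of all genes on in PC-9. There was no second PC-9GR library, so these counts have no test.

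PC-9ER showed little median shift of its HOX genes from PC-9, but a larger share of them than of all genes passed 2-fold either way. Of 17 HOX genes with at least 1 CPM, 3 were at least 2-fold higher (HOXB8 and HOXB9 among them) and 3 lower (HOXC6, HOXC11 and HOXC13), beside 5.38% and 7.67% of all genes, and the median log2 ratio was 0.04. Of these, HOXB8 entered only by being higher in PC-9ER, and HOXC6 and HOXC11 only by being higher in PC-9. No HOX gene was on in 1 of these libraries and silent in the other, beside 1.27% of the genes silent in PC-9 and 0.343% of the genes on in PC-9. In HCC827GR, 0 of 22 HOX genes were at least 2-fold higher and 12 were lower, beside 7.67% and 9.16% of all genes, with a median log2 ratio of -1.03 over the HOX genes and 0.01 over all genes. All 22 were on in HCC827, so none entered only by being higher in HCC827GR. HOXA11, HOXC8, HOXC11 and HOXC13, under 1 CPM in HCC827GR, entered only by being higher in HCC827. These shares and medians are thus not matched. Among the 12 were HOXA2, HOXA3, HOXA10, HOXB5, HOXB8, HOXC10, HOXC11 and HOXC13, from both ends of the clusters. Of the 22 HOX genes on in HCC827, HOXC11 and HOXC13 were silent in HCC827GR, 2 genes, beside 1.29% of all genes on in HCC827, and 0 of the 7 silent ones were on, beside 3.49%. The summed level of the 32 genes was 95.8 CPM in HCC827GR and 182 CPM in HCC827ER, against 217 CPM in HCC827. In HCC827ER, 2 of 25 were at least 2-fold higher (HOXC4 and HOXC9) and 6 lower (HOXA2, HOXC11 and HOXC13 among them), beside 18% and 18.9% of all genes, and the median was -0.17. Of these, HOXC4 entered only by being higher in HCC827ER, and HOXA9 and HOXC11 only by being higher in HCC827. Scaled to library totals in place of TMM, the HCC827ER counts were 0 higher and 10 lower. HOXC11 was the 1 gene on in HCC827 and silent in HCC827ER, beside 0.951% of all genes on in HCC827, and 0 of 2 silent ones were on, beside 6.34%. The summed level of PC-9GR was 197 CPM and that of PC-9ER 168 CPM, against 171 CPM in PC-9.

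**Figure D2:**
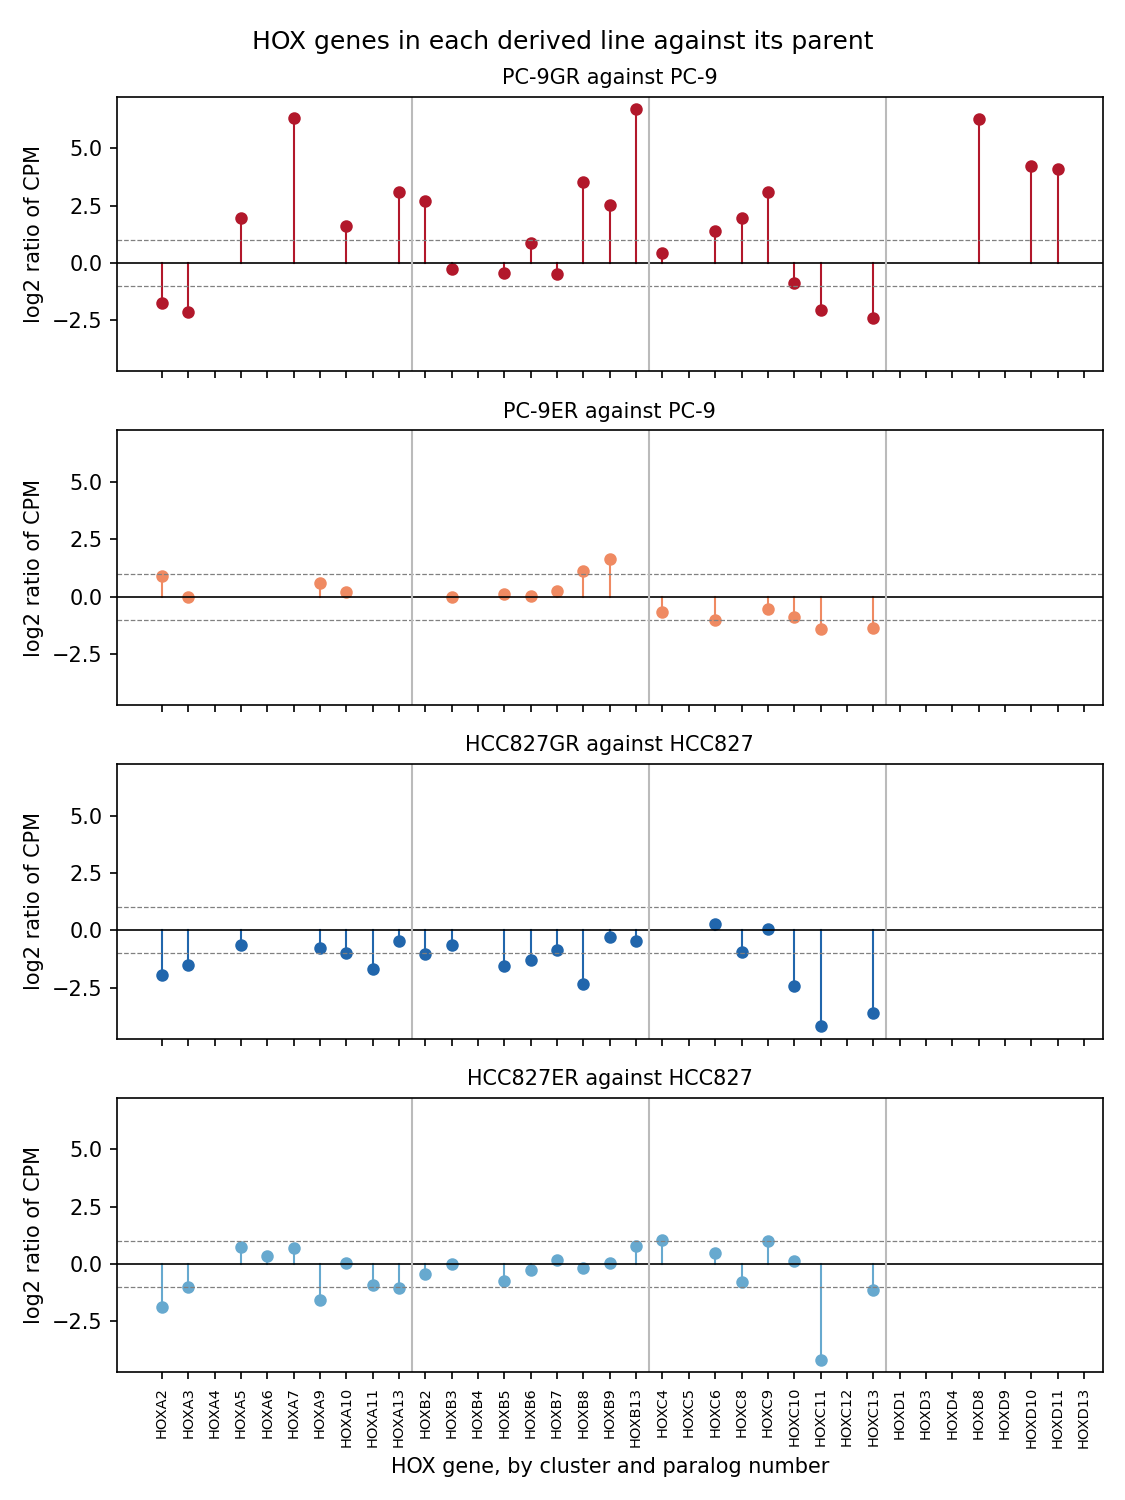
The log2 ratio of HOX genes in each derived line to its parent, with a prior count of 2, for genes with at least 1 CPM in 1 of the 2 libraries; dashed lines mark 2-fold and vertical lines part clusters A to D. HOXA7 reaches 6.31 in PC-9GR, no gene lies above the upper dashed line in HCC827GR, and HOXC11 and HOXC13 lie below the lower line in all 4 panels.

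The HOXD cluster, whose high-numbered genes shape limbs and the genital tract, was silent in PC-9 in all 8 genes, each at 0 counts, and 3 of its genes were on in PC-9GR. HOXD8 had 166 counts in PC-9GR and 0 in PC-9ER, against 0 in PC-9, and 0 in HCC827GR and 3 in HCC827ER, against 6 in HCC827. HOXD10 had 39 counts and HOXD11 35 counts in PC-9GR, against 0 in PC-9, and both were at 0 in HCC827GR and in HCC827. HOXD8 was thus on in PC-9GR alone of the 6 libraries, and HOXD10 and HOXD11 in PC-9GR alone of the 4 libraries with a value, since PC-9ER and HCC827ER have none. At 0 counts in PC-9, HCC827 and HCC827GR, HOXD4, HOXD10, HOXD11 and HOXD13 were listed only because PC-9GR had counts. That PC-9GR alone had counts for these genes was thus fixed by the listing. Against the 3 counts that a 0 allows, the level in PC-9GR exceeded that in PC-9 at least 54.4-fold for HOXD8, at least 12.8-fold for HOXD10 and at least 11.5-fold for HOXD11. The other 5 genes in PC-9GR ran from HOXD9 with 16 counts through HOXD4 with 12, HOXD3 with 7 and HOXD13 with 4 to HOXD1 with 1. The models of HOXD10 and HOXD11 overlap, and that of HOXD3 spans HOXD4. In HCC827, HOXD9 had 10 counts, HOXD8 had 6 and HOXD1 had 1, and none of the 8 was on. The 8 genes summed to 15.8 CPM in PC-9GR, against 0 in PC-9, and to 0.370 CPM in HCC827GR, against 1.12 CPM in HCC827. MTX2 and LNPK, which flank the HOXD cluster, were at 37.7 and 40.8 CPM in PC-9GR, against 35.7 and 50.0 CPM in PC-9. These neighbours were named after their values were seen.

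Outside HOXD, HOXB13 and HOXA7 showed the same contrast. HOXB13, a prostate and hindgut gene, had 226 counts in PC-9GR and 0 in PC-9ER, against 0 in PC-9, and 32 in HCC827GR and 69 in HCC827ER, against 42 in HCC827. HOXA7 had 169 counts in PC-9GR and 1 in PC-9ER, against 0 in PC-9, and 14 in HCC827GR and 16 in HCC827ER, against 10 in HCC827. PC-9GR was thus above every other library for both, and the HCC827 family lay in between. HOXB13 was at least 74.1-fold higher than in PC-9. For HOXA7 the bound was at least 55.4-fold higher. Set against HCC827, HOXA7 in PC-9GR was 14.5-fold higher (95% interval 7.68 to 30.7). Against HCC827, 11 of 27 HOX genes were at least 2-fold higher in PC-9GR and 9 lower, beside 20.7% and 16.9% of all genes. Markers of other cell types in PC-9GR were THY1, a fibroblast marker, at 171 counts, against 1 in PC-9, CD14, a monocyte marker, at 90 counts, against 1 in PC-9, and CDX2, a hindgut factor, at 22 counts, against 0 in PC-9. The defining markers COL3A1, DCN, CD3E, VWF and GUCY2C were at 0 counts in PC-9GR. The summed level of 8 fibroblast markers was 42.0 CPM in PC-9GR, against 22.4 CPM in PC-9, that of 5 leukocyte markers 32.2 CPM, against 25.6 CPM in PC-9, and that of 4 gut markers 2.85 CPM, against 0.445 CPM in PC-9. Of 4 endothelial markers the sum was 0.113 CPM in PC-9GR and 53.6 CPM in PC-9ER, against 213 CPM in PC-9, where CDH5 and PECAM1 made up nearly all of it. For 4 urogenital markers the sum was 9.28 CPM in PC-9GR, against 54.1 CPM in PC-9, and for 2 neural crest markers 35.8 CPM, against 19.3 CPM in PC-9. The part of other cell types in the HOX differences was not tested.

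**Figure D3:**
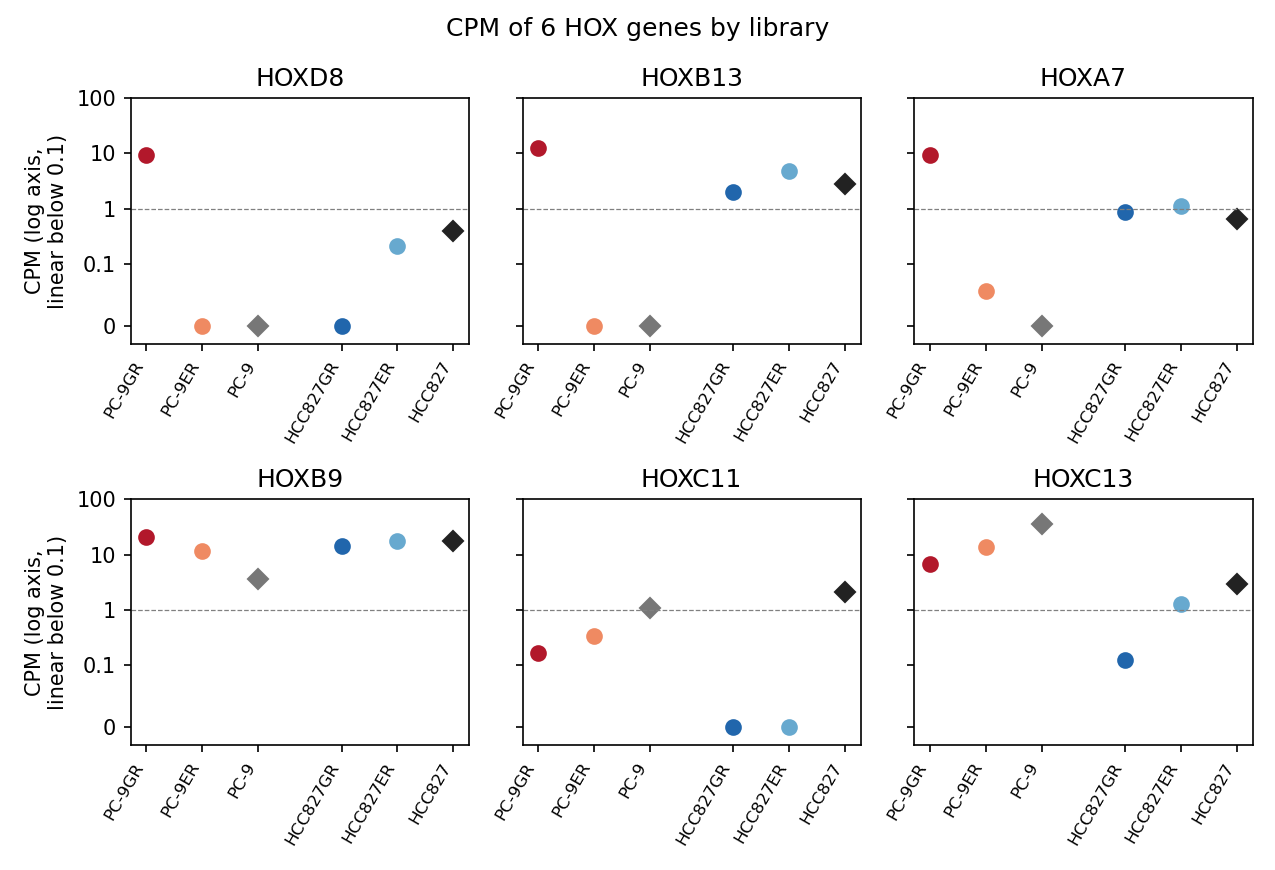
CPM of 6 HOX genes in each library, with circles for derived lines and diamonds for parents, on a log axis that is linear below 0.1 CPM; the dashed line is at 1 CPM and points on the 0 mark had no count. HOXD8 passes the dashed line only in PC-9GR, where it is at 9.34 CPM, and HOXC11 and HOXC13 lie below the parent in every derived line.

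The start regions of the genes that were silent in PC-9 and on in PC-9GR are shown for HOXD8, HOXD10 and HOXA7, because HOX start regions are rich in CpG dinucleotides, where Polycomb and DNA methylation act. Each run is the 250 bases before the RefSeq gene start in GRCh38.p14, 5′ to 3′ on the strand of the gene, with CpG dinucleotides in capitals. HOXD8 is on the plus strand at chr2:176129455-176129704, HOXD10 on the plus strand at chr2:176116528-176116777, and HOXA7 on the minus strand at chr7:27156676-27156925.
HOXD8: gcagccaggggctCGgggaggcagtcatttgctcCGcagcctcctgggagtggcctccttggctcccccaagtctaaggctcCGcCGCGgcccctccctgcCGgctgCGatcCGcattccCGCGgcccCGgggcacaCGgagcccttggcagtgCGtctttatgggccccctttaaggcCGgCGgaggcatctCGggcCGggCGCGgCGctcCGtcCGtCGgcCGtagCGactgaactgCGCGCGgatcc
HOXD10: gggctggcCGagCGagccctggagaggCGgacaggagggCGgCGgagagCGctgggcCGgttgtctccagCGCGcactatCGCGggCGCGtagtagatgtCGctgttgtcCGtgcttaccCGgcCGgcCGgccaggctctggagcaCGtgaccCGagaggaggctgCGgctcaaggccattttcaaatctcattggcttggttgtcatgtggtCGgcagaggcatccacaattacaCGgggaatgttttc
HOXA7: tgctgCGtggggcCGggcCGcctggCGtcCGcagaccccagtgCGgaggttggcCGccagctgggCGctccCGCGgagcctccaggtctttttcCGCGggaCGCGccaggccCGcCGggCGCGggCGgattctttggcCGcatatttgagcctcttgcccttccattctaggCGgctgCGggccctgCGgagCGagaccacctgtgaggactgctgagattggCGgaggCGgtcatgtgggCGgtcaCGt
The HOXD8 window holds 28 CpG dinucleotides, the HOXD10 window 23 and the HOXA7 window 28. The median over the 27 windows of 20 HOX genes was 19, beside 11 over all 35116 windows, so each of the 3 lies above both. The letters TTTATNG, bound by high-numbered HOX proteins, were searched on both strands and occur in the HOXD8 window, 92 bases before the start, and in neither of the other windows. They occur in 7 of the 27 HOX windows and in 8.93% of all windows. The letters TGATNNAT, a composite site of PBX and HOX proteins, were searched in the same way and occur in none of the 3 windows, in 3 of the 27 HOX windows and in 6.47% of all windows. These data hold no measure of methylation or binding.

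HOXC11 and HOXC13 were at least 2-fold lower than the parent in all 4 derived lines. No other HOX gene listed for all libraries was past 2-fold in the same direction in all 4. Over all genes, 0.69% were lower by that rule and 0.392% higher. HOXC13, which drives hair and nail keratins, had 121 counts in PC-9GR and 250 in PC-9ER, against 637 in PC-9, and 2 in HCC827GR and 18 in HCC827ER, against 44 in HCC827. Its level was 6.81 CPM in PC-9GR and 13.9 CPM in PC-9ER, against 36.5 CPM in PC-9, a ratio of 0.187 (95% interval 0.152 to 0.227) and of 0.382 (0.329 to 0.443). In HCC827GR it was 0.0427 times the level of HCC827 (0.00501 to 0.164), and in HCC827ER 0.439 times (0.239 to 0.775). HOXC11 had 3 counts in PC-9GR and 6 in PC-9ER, against 19 in PC-9, and 0 in both HCC827GR and HCC827ER, against 32 in HCC827. The 2 derived lines of HCC827 were at least 11.4-fold (HCC827GR) and at least 9.94-fold (HCC827ER) lower, and in PC-9GR the level was 0.155 times that of PC-9 (0.0294 to 0.527). In PC-9ER the HOXC11 level was 0.308 times that of PC-9 (0.101 to 0.801), where PC-9 was at 1.09 CPM. Both of these intervals reach changes under 2-fold, as does that of HOXC13 in HCC827ER. The neighbour HOXC12 had at most 7 counts in any library, and HOXC10 did not share the pattern in HCC827ER. The 4 pairs use 2 parental libraries, so the pairs of a family share the parent's counting error.

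Between the parents, 11 of 23 HOX genes were at least 2-fold higher in HCC827 and 3 lower, beside 18.7% and 19.3% of all genes, with a median log2 ratio of 0.98 over the HOX genes. A gene under 1 CPM in PC-9 entered only by being higher in HCC827, and a smaller share of HOX genes than of all genes was on in PC-9. Genes that parted the parents included HOXA10 at 29.7 CPM in HCC827, against 2.69 CPM in PC-9, and HOXC13 at 2.89 CPM in HCC827, against 36.5 CPM in PC-9. HOXB13, at 42 counts in HCC827 and 0 in PC-9, was the 1 gene on in 1 parent and silent in the other. It was 1 of 13 HOX genes silent in PC-9, beside 13% of all such genes on in HCC827, and 0 of the 15 on in PC-9 were silent in HCC827, beside 3.43%. HCC827 had 37.9% of its HOX level per kilobase in the HOXA cluster, against 18.3% in PC-9, and 13.7% in the HOXC cluster, against 27.2% in PC-9. The HOXA share was 34.8% in HCC827GR and 29.8% in HCC827ER, and 19% in PC-9GR and 22% in PC-9ER, so on this measure each derived line lay nearer its own parent. The HOXC share did not follow this order, at 10.6% in HCC827GR and 16.6% in HCC827ER, and 19% in PC-9GR and 11.6% in PC-9ER, so that all 4 derived lines lay nearer HCC827 than PC-9.

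Ranked over the 32 HOX genes, PC-9ER, HCC827GR and HCC827ER were nearer to their own parent, and PC-9GR was not. The Spearman correlation of PC-9ER was 0.95 with PC-9 and 0.82 with HCC827. That of HCC827GR was 0.88 with HCC827 and 0.61 with PC-9, and that of HCC827ER 0.88 with HCC827 and 0.67 with PC-9. PC-9GR correlated at 0.41 with PC-9 and 0.53 with HCC827, both below the 0.75 between HCC827 and PC-9. Its highest value was 0.69, with HCC827ER, and the next 0.60, with HCC827GR. HCC827GR and HCC827ER correlated at 0.92 with each other, above the value of either with HCC827. These correlations are descriptions over genes, with no p, since genes are not independent replicates, and pairs of libraries in the same table share its processing. By state, PC-9GR and PC-9 gave the same call for 20 of the 32 genes, with 4 on in 1 and silent in the other, and PC-9ER and PC-9 the same call for 25, with 0 such genes. HCC827GR matched HCC827 for 23 genes and HCC827ER matched it for 21, with 2 and 1 such genes. With the other parent the same call was found for 24 genes in PC-9GR and 15 in PC-9ER (both with HCC827), and for 17 in HCC827GR and 23 in HCC827ER (both with PC-9). By same calls PC-9GR and HCC827ER matched the other parent more often than their own. Genes on in 1 and silent in the other numbered 1 for PC-9GR and 1 for PC-9ER with HCC827. With PC-9 they numbered 3 for HCC827GR and 4 for HCC827ER. By that count only PC-9GR was nearer the other parent, and HCC827ER, with 1 such gene against HCC827, was nearer its own.

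**Figure D4:**
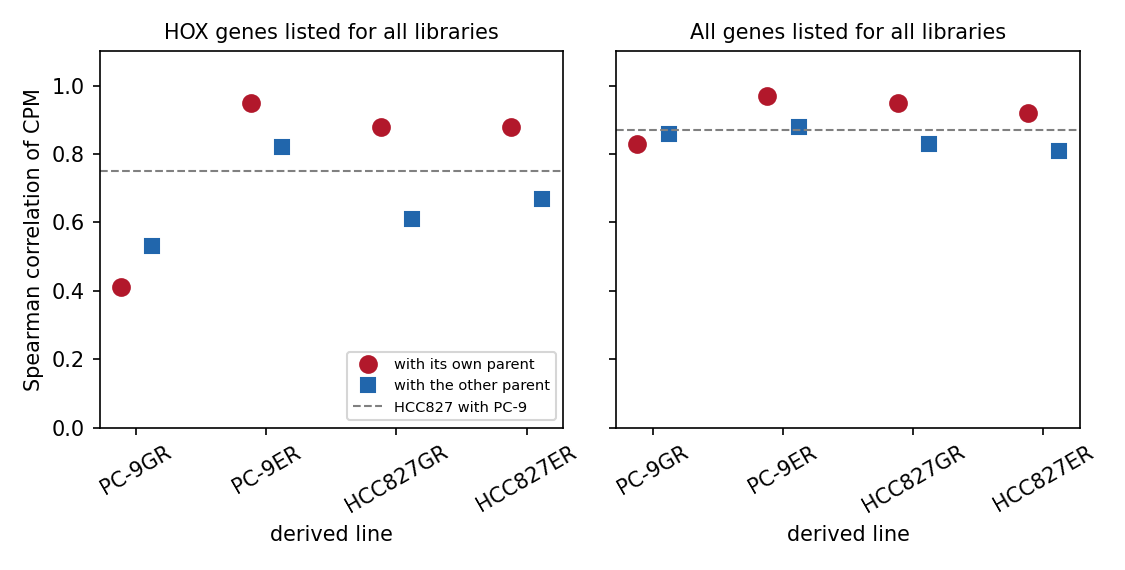
Spearman correlation of CPM between each derived line and its own parent (circles) or the other parent (squares), over the 32 HOX genes on the left and 16000 genes on the right; the dashed line is HCC827 with PC-9. The circle lies above the square in both panels except for PC-9GR, whose HOX values of 0.41 and 0.53 are both below the dashed line at 0.75.

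No HOX gene passed a test across lines. With the parent as a block, edgeR's quasi-likelihood test called 0 of the 26 HOX genes that passed the filter on low counts, beside 0% of the 13492 genes tested, when all derived lines were set against both parents. At an unadjusted p under 0.05 there was 1 HOX gene, beside 342 of all genes tested. It was HOXC11 (log2 fold change -4.50 ± 1.58, edgeR adjusted p = 0.999), whose fitted change was -2.08 without HCC827 and -8.10 without PC-9, and HOXC13 was at -1.93 ± 0.83 (edgeR adjusted p = 0.999). DESeq2 called 0 HOX genes, beside 0.252% of all genes, with 2 HOX genes and 745 of all genes at an unadjusted p under 0.05, and limma-voom called 0, with 2 and 490. For PC-9GR and PC-9ER against PC-9, edgeR called 0 of 26, with 0 at an unadjusted p under 0.05, and DESeq2 0 with 3, beside 0.682% of all genes called. For HCC827GR and HCC827ER against HCC827, edgeR called 0 with 1, again HOXC11 (-8.12 ± 2.23, edgeR adjusted p = 1), whose fitted size depends on the prior count because both derived lines were at 0, and DESeq2 called 0 with 1, beside 0.311% of all genes. For the difference between families, edgeR called 0 with 0 and DESeq2 0 with 1, beside 0.185% of all genes. The median fitted change over the 26 genes was 0.85 in the PC-9 family and -0.72 in the HCC827 family, beside 0.07 and 0.04 over all genes, with 24 of 26 differences (HCC827 family minus PC-9 family) below 0. The median difference was -1.39, beside -0.04 over all genes. Without PC-9GR the median difference was -0.96, with 19 of 25 below 0. The HCC827 family median was -0.22 without HCC827GR, with 12 of 26 genes above 0, and -1.04 without HCC827ER. Without PC-9GR the median in the PC-9 family was 0.05, and edgeR called 0 HOX genes there and 0 in the difference, beside 0.015% and 0.0902% of all genes. Without PC-9ER, where the PC-9 family is PC-9GR alone and is assumed to vary like the HCC827 lines, edgeR called HOXA7 and HOXB13 higher than in PC-9, beside 7.58% of all genes, and HOXA7, HOXB13 and HOXD9 in the difference between families, beside 3.84%. HOXC11 was called lower in the HCC827 family without PC-9GR (adjusted p = 0.0137), beside 1.2% of all genes, or without PC-9ER (adjusted p = 0.0191), beside 1.21%. The spread is that between derived lines, which may be smaller or larger than that between cultures of a line. For all derived lines against both parents, the spread also takes in the difference between families.

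Genes that work with or on the clusters were read from 6 lists, and edgeR, DESeq2 and limma-voom called none of their members in any of the 4 comparisons. Beside the counts that follow, PC-9GR had 22.6% of all genes at least 2-fold higher and 19.7% lower, PC-9ER had 5.38% higher and 7.67% lower, HCC827GR had 7.67% higher and 9.16% lower, and HCC827ER had 18% higher and 18.9% lower. At an unadjusted edgeR p under 0.05 there were at most 1 Polycomb and 1 flanking gene per comparison and none in the other lists. Of the 9 HOX cofactors, 8 had at least 1 CPM in PC-9GR or PC-9, and 3 were at least 2-fold higher and 2 lower in PC-9GR. MEIS3, which binds DNA with PBX and HOX proteins, was at 41.3 CPM in PC-9GR and 1.62 CPM in PC-9ER, against 1.55 CPM in PC-9. PBX4 had 2 counts in PC-9GR, against 24 in PC-9. Of the 22 Polycomb genes, PC-9GR had 3 at least 2-fold higher and 4 lower, PC-9ER 0 and 0, HCC827GR 1 and 1, and HCC827ER 1 and 4, none of them above the share of all genes. CBX7, a Polycomb subunit that reads methylated histone, was at 6.24 CPM in PC-9GR and 35.0 CPM in PC-9ER, against 63.8 CPM in PC-9, while CBX8 was at 23.2 CPM in PC-9GR and 4.91 CPM in PC-9ER, against 8.53 CPM in PC-9. EZH2, the methyltransferase of the complex, was at 32.6 CPM in PC-9GR and 43.5 CPM in PC-9ER, against 40.3 CPM in PC-9, and at 39.6 CPM in HCC827GR and 12.3 CPM in HCC827ER, against 67.2 CPM in HCC827. MEIS3, PBX4, CBX7, CBX8 and EZH2 were picked after their values were seen.

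Of the 18 trithorax-type activators, 0 were at least 2-fold higher and 4 lower in PC-9ER, with 0 and 7 in HCC827ER. These numbers were 2 and 3 for PC-9GR and 0 and 0 for HCC827GR. The median log2 ratio of the list was -0.26 in PC-9GR and -0.32 in PC-9ER, beside 0.05 and 0.02 over all genes, and 0.14 in HCC827GR and -0.74 in HCC827ER, beside 0.01 over all genes in both. The largest ratios in PC-9ER were those of the methyltransferases KMT2C, at 30.9 CPM in PC-9ER, against 94.5 CPM in PC-9, and KMT2A, at 89.7 CPM in PC-9ER, against 233 CPM in PC-9, and of the acetyltransferase KAT6B, at 14.1 CPM in PC-9ER, against 36.8 CPM in PC-9. KMT2C and KMT2A were lower in PC-9GR too, at 35.8 and 51.2 CPM. In HCC827ER they were at 13.1 and 43.2 CPM, and in HCC827GR at 41.4 and 169 CPM, against 41.0 and 125 CPM in HCC827. In the retinoic acid list, 1 of 11 genes was at least 2-fold higher and 7 lower in HCC827GR (median log2 ratio -2.29, beside 0.01 over all genes), 4 and 4 of 12 in HCC827ER, 2 and 4 of 13 in PC-9GR, and 0 and 0 of 12 in PC-9ER. STRA6, the retinol importer, had 1 count in HCC827GR, against 211 in HCC827, and CRABP2, which carries retinoic acid to its receptors, was at 7.27 CPM in HCC827GR, against 399 CPM in HCC827. CRABP2 was also at 0.731 CPM in PC-9GR, against 54.8 CPM in PC-9. ALDH1A1, which makes retinoic acid, had 128488 counts in PC-9GR and 0 in PC-9ER, against 1 in PC-9, and 2794 in HCC827GR and 12063 in HCC827ER, against 34 in HCC827. ALDH1A3, with the same activity, was at 45.1 CPM in HCC827ER, against 286 CPM in HCC827. Of the genes flanking the clusters, 4 of 13 were at least 2-fold higher and 2 lower in PC-9GR, 0 and 0 of 11 in PC-9ER, 1 and 0 of 11 in HCC827GR, and 3 and 2 of 11 in HCC827ER. SKAP1, next to HOXB, had 303 counts in PC-9GR, against 0 in PC-9, at least 99.3-fold higher, and SNX10, on the side of HOXA, was at 141 CPM in HCC827ER, against 17.0 CPM in HCC827. Of the homeobox genes related to the clusters, CDX2, EVX1 and PDX1 had values, and the highest was PDX1 with 25 counts in HCC827.

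Of the remaining HOX genes, HOXA4, HOXA6, HOXA9, HOXA11, HOXB4, HOXC4, HOXC5, HOXC8 and HOXC12 reached at most 4.49 CPM, in HOXC4 in PC-9GR. HOXB4 and HOXC5 were below 1 CPM in every library, and so were HOXA4, HOXC12 and HOXD1. The largest ratio of these 9 between a derived line and its own parent, with at least 1 CPM in 1 of both, was that of HOXC8 in PC-9GR, at 3.43 CPM, against 0.801 CPM in PC-9.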

How the data were processed

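Total RNA of 6 lines was sequenced after ribosomal depletion with a stranded TruSeq Ribo-Zero kit, per the labels' protocols. Per the submitters' processing notes, HISAT2 2.0.4, Cuffdiff and GRCh38.p13 were used. The authors deposited expected counts per gene in 2 tables, of 16854 and 16306 genes, with 16000 in both, and no source used here names the program behind these estimated counts. Between 13.198% and 14.326% of values per library were not whole, and they were rounded for the tests. No column of per-sample values was left unused (0).

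The tests used edgeR 4.0.16 (R 4.3.3) with TMM scaling, the default filter on low counts, robust quasi-likelihood fits, and p-values adjusted by Benjamini-Hochberg at 0.05 over all genes tested, with limma 3.58.1 (voom) and DESeq2 1.42.0 as alternatives. Scripts were tested on simulated data. With 1 library per line, p-values measure the spread between derived lines of a family, with 2 residual degrees of freedom where each family has its own effect. For all derived lines against both parents there are 3, and that spread also takes in the difference between families. Single pairs have no test. A gene counted as higher or lower at a log2 ratio of at least 1 either way (prior count 2) and 1 CPM in 1 library. Intervals at 95% and the floor of 3 counts cover counting error only, since reads carry no molecular identifiers. Gene positions, overlaps and exon lengths come from GENCODE v29.

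Named HOX genes were those with at least 5 CPM in 1 library, on in 1 line and silent in its parent, or past a test. Named list genes were the 3 with the largest log2 ratio per derived line at 5 CPM or more, and exceptions are stated. A few values are not reported here. The members and lists were chosen with earlier results of these data known. The search for CpG and 2 motifs was chosen after the sequences had been seen. Alternatives were other scalings, filters, tools, thresholds and pseudocounts, and each library or cluster left out in turn.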

Additional observations from a re-analysis of the deposited data

Results flagged for a closer look

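Among the log2 ratios of the 4 derived lines, 1 line stood apart from the other 3 for HOXA7 (6.31 in PC-9GR), HOXA13 (3.1 in PC-9GR) and HOXA2 (0.92 in PC-9ER). Chance sets apart about 1 in 20 such groups, and 25 HOX genes were looked at.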

How the results depend on the processing

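Of the summary results compared under another setting, 125 were counted as unchanged and 4 counts of called genes and 18 other values were not. Some of the 125 still moved by several genes. At 0.5 CPM the HOX genes on went from 14 to 21 in PC-9ER and from 15 to 21 in PC-9. At 2 CPM they went from 21 to 14 in HCC827ER. A 4-fold limit took the higher HOX genes in PC-9GR from 15 to 10. Leaving out 1 library at a time gave 0 to 2 called HOX genes in the PC-9 family (2 without PC-9ER), 0 to 1 in the HCC827 family (1 without PC-9GR or without PC-9ER), 0 to 3 in the difference between families (3 without PC-9ER) and 0 in resistant against parental lines. Without PC-9ER or without PC-9GR the spread rests on fewer lines. The fitted HOXB13 change in the PC-9 family was 0.0 without PC-9GR and 10.68 without PC-9ER. A 4-fold limit gave 0 higher and 0 lower HOX genes in PC-9ER, 5 lower in HCC827GR, 0 higher and 1 lower in HCC827ER, and 7 higher in HCC827 than in PC-9. Scaling to library totals gave 0 higher and 10 lower in HCC827ER, where it shifted the median of all genes to -0.34, against 0.01 with TMM. A limit of 2 CPM left 10 genes on in HCC827GR and 0 silent in PC-9GR but on in PC-9. A limit of 0.5 CPM gave 8 genes on in PC-9GR and silent in PC-9, 4 on in HCC827 and silent in PC-9, and 2 silent in HCC827ER and on in HCC827. The distance in log2 levels to the own parent minus that to the other was 4.68 for PC-9GR and -6.08 for PC-9ER with a pseudocount of 0.1 CPM. The correlation with the own parent minus that with the other was 0.39 for HCC827GR and 0.34 for HCC827ER over genes with at least 1 CPM, and 0.08 for HCC827ER without the HOXB cluster. The cause of these moves was not tested. The line of origin was the block in every fit across lines, and a pairing by replicate number could not be made: no paired analysis was possible because each line has 1 library and no such number. At these depths a gene at 0 counts can hold up to 0.167 to 0.211 CPM, so a level below that was not detectable.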
